A study of Mus musculus with 8 samples.

Results

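The 48 proteasome subunit genes of the mouse were examined at their promoters in neonatal epidermis. They are all protein-coding genes in the RefSeq annotation of mm10 (GRCm38.p6) whose symbol is Psma, Psmb, Psmc, Psmd, Psme, Psmf or Psmg followed by a number, 48 of 21000 protein-coding genes with a curated transcript. The rule goes by symbol and uses no measured value. The members lie on 16 chromosomes and have 51 annotated transcription start sites (TSSs), with a pair of TSSs each for Psma6, Psmc2 and Psme2. To ask where the histone acetyltransferase MOF sits in skin, the study mapped MOF by ChIPseq, in which sheared chromatin is pulled down with an antibody. Rfx2, a transcription factor of ciliary genes, and the histone marks H3K4me3 and H3K27ac were mapped by Cut&Run, in which an antibody leads a nuclease to its target. All libraries were made from total epidermis of wild-type mice on postnatal day 0.5, with no treatment and no mutant group, and total epidermis is a mixture of cell types rather than a sorted population. Each of the 4 peak lists came from 1 library, so no value below has a replicate error, no difference was tested, and every count describes these libraries.

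The proteasome is the large protease that degrades ubiquitin-tagged proteins in the cytosol and the nucleus of all cells. Its 20S core is a barrel of stacked rings, with alpha subunits (Psma genes) gating the entry and beta subunits (Psmb genes) forming the rings that cut. The 19S cap binds the ubiquitin tag, removes it and unfolds the protein, using a ring of ATPases (Psmc genes) and the non-ATPase subunits (Psmd genes). Activators (Psme genes) can take the place of the cap, Psmf1 encodes an inhibitor, and the Psmg genes encode chaperones that assemble the core. Immune cells and interferon-treated cells swap in Psmb8, Psmb9 and Psmb10, the thymus uses Psmb11, and male germ cells use Psma8. MOF acetylates lysine 16 of histone H4, H3K4me3 marks promoters in use, and H3K27ac marks active promoters and enhancers.

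The promoter window began 1 kb before each TSS and ended 100 bp after it, and a gene had a peak there when any peak of the list overlapped the window. The members' promoters are shown by 3 examples with their CpG dinucleotides in capitals, since H3K4me3 in mammals is mostly found at CpG-rich promoters. Each is written 5′ to 3′ on the gene's own strand, from 250 bases before the TSS to the TSS itself, as RefSeq gives it for GRCm38.p6. Psma1, an alpha subunit of the core with all peaks but Rfx2, is on the minus strand at chr7:114276116-114276366 and holds 18 CpGs. Psmb10, an immunoproteasome subunit with both marks and no MOF peak, is on the minus strand at chr8:105938392-105938642 and holds 3 CpGs. Psmb11, the thymic subunit with no peak in any list, is on the plus strand at chr14:54625060-54625310 and holds 4 CpGs.
Psma1: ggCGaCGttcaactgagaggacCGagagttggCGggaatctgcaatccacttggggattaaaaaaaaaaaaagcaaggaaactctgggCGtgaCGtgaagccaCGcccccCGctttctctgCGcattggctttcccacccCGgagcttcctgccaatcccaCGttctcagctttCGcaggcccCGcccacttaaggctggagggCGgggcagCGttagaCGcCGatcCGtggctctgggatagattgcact
Psmb10: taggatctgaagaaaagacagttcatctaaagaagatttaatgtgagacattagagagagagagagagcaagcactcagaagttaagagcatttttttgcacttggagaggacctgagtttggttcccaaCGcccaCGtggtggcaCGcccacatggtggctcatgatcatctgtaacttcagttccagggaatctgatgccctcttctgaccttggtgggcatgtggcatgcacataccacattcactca
Psmb11: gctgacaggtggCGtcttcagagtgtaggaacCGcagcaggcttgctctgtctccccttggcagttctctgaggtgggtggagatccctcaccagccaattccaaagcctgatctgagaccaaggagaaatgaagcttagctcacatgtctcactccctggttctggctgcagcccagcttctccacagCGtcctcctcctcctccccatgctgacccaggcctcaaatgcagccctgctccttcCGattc

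Psmd13, a lid subunit of the 19S cap, was the only member with an Rfx2 peak, and its promoter is shown with the ETS core CCGGAAG in capitals. The stretch is on the plus strand at chr7:140882144-140882394, and the 7 capital letters run from 6 bases before the TSS to the TSS. Psmc2, an ATPase of the 19S cap, is shown at both of its TSSs because its MOF peak lies at the second. Both stretches are on the plus strand, at chr5:21785025-21785275 and chr5:21786497-21786747, and the capitals mark the ETS core read on the opposite strand.
Psmd13: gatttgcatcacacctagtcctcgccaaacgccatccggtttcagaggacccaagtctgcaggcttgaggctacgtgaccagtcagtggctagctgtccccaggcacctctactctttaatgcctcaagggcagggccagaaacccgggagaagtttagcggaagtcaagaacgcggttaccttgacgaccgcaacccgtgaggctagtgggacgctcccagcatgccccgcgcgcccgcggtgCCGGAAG
Psmc2, first TSS: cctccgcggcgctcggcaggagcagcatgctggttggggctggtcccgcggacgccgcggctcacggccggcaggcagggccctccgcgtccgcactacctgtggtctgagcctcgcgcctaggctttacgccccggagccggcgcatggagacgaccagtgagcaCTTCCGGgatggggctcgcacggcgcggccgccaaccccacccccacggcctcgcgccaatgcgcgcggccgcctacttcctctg
Psmc2, second TSS: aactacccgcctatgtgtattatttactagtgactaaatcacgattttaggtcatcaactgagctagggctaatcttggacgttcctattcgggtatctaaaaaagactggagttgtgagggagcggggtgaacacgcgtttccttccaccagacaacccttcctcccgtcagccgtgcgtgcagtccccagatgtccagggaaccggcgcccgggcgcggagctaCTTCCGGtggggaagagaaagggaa

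Nearly all proteasome genes carried both active marks at the promoter, and most of them carried MOF as well. H3K4me3 was present at 46 of 48 members (95.8%, exact Clopper-Pearson 95% interval 85.7 to 99.5), where 60.7% of all protein-coding genes had it. H3K27ac was present at 45 members (93.8%, 82.8 to 98.7), against 50.1% of all protein-coding genes. MOF was present at 28 members (58.3%, 43.2 to 72.4), against 26.6% of all protein-coding genes. Rfx2 was present at 1 member (2.08%, 0.0527 to 11.1), close to the 1.41% of all protein-coding genes. The intervals cover counting error over genes only.

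Of the 5591 protein-coding genes with MOF, 5410 also had H3K4me3, so the members' share was also set beside that class. Of the 46 members with H3K4me3, 28 had MOF (60.9%, 45.4 to 74.9), against 42.4% of the 12746 protein-coding genes with H3K4me3. Of the 45 members with both marks, 28 had MOF (62.2%, 46.5 to 76.2), against 49.1% of the protein-coding genes with both marks, a background that lies inside the members' interval. All 28 members with MOF carried both marks. With the highest 50% of each list's peaks the distance narrowed, and 12 of 40 members with H3K4me3 had MOF (30.0%, 16.6 to 46.5), against 26.7% of protein-coding genes.

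The labelled tissue was looked up by H3K4me3 at marker genes, but at 60.7% of all protein-coding genes the mark is too common for these short lists to tell tissues apart. The mark was present at 6 of 10 keratinocyte markers, Krt5, Krt14, Trp63, Col17a1, Itgb4 and Sfn, and absent from Krt1, Krt10, Lor and Ivl, genes of the differentiated layers. It was also present at 3 of 5 melanocyte markers, 1 of 5 leukocyte markers (H2-Ab1), 3 of 5 fibroblast markers and 1 of 4 endothelial markers (Kdr). The lists held 17546 MOF, 337 Rfx2, 27039 H3K4me3 and 30736 H3K27ac peaks.

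**Figure D1:**
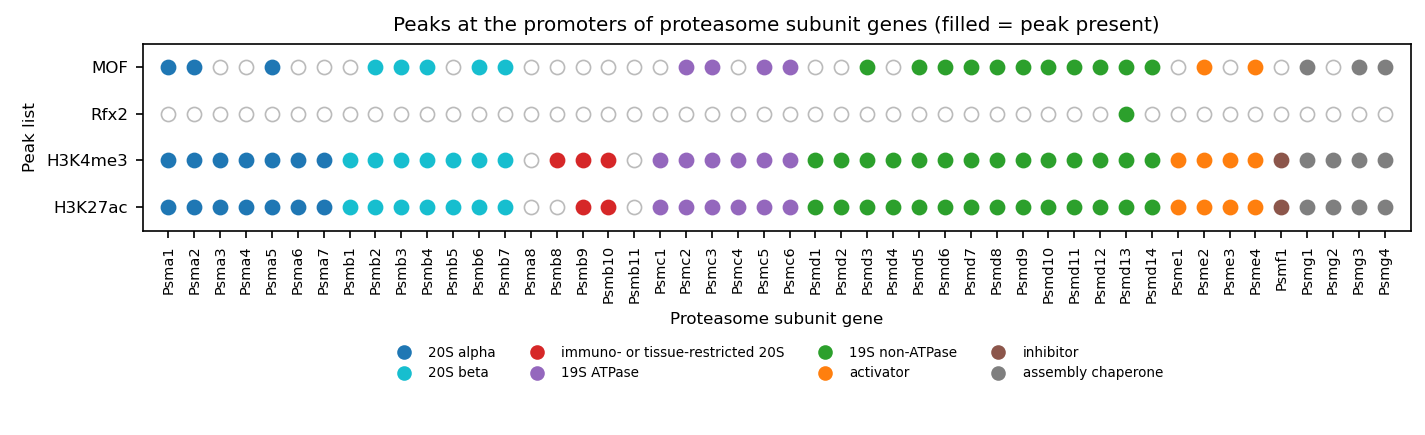
Each column is 1 of the 48 proteasome subunit genes and each row 1 of the 4 peak lists; a filled circle means at least 1 peak overlapping the promoter, coloured by the subunit's role, and an open circle means none. H3K4me3 and H3K27ac fill nearly the whole row, with gaps at Psma8, Psmb8 and Psmb11, while MOF is present at 28 genes and Rfx2 at Psmd13 alone.

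In the 20S core, both marks were present at all 14 constitutive genes and MOF at 8 of them. Among the alpha subunits, which gate the barrel, MOF was present at 3 of 7: Psma1 with a peak score of 1339, Psma5 with 626 and Psma2 with 463. The MOF score is the authors' region score on a scale that was not stated, so it ranks MOF peaks within their list and nothing else. Psma3, Psma4, Psma6 and Psma7 had both marks and no MOF peak. Psma6 had its H3K4me3 and H3K27ac peaks at the second of its TSSs, the H3K4me3 peak beginning 13919 bp downstream of the first.

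MOF was present at 5 of 7 constitutive beta subunits. The scores were 924 at Psmb2, 491 at Psmb4, 385 at Psmb3, 381 at Psmb6 and 367 at Psmb7. The catalytic subunits were thus divided: Psmb6, which cuts after acidic residues, and Psmb7, which cuts after basic residues, had MOF, and Psmb5, which cuts after hydrophobic residues, did not. The scores of Psmb6 and Psmb7 were low, at percentiles 7.51 and 6.47 of genes with MOF. Neither gene kept MOF with the highest 50% of peaks. Psmb5 had H3K4me3 at a fold enrichment of 11.1 over 1100 bp and H3K27ac at 6.69 over 227 bp. A second H3K27ac peak, of 342 bp at 6.21, was centred 370 bp downstream of the TSS, outside the promoter window. Psmb1, a structural beta subunit, was the other one without MOF.

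None of the 5 restricted core genes had MOF (0%, 0 to 52.2), an interval that holds the 26.6% of all protein-coding genes. Psmb8, Psmb9 and Psmb10, the interferon-induced subunits of the immunoproteasome, had H3K4me3 at fold enrichments of 10.3, 9.81 and 7.29. H3K27ac was present at Psmb9 with 8.28 and at Psmb10 with 3.86, at percentile 5.95 of the genes with that mark, and absent from Psmb8, whose nearest H3K27ac peak lay 6303 bp from the TSS. The H3K4me3 of Psmb9 was 1 peak shared with the divergent Tap1. Psma8 and Psmb11, the germ-cell and thymic subunits, had no peak in any list, and their nearest H3K4me3 peaks lay 22713 bp and 7021 bp away. Without these 5 genes both marks were present at 43 of 43 members and MOF at 28 of 43 (65.1%, 49.1 to 79.0). Over all protein-coding genes with both marks, the MOF share was 49.1%. This subset was chosen after seeing the data, and leaving out genes without MOF can only raise the share.

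Of the 20 Psmc and Psmd genes, named after the 19S cap, MOF was present at 15 (75%, 50.9 to 91.3) and both marks at all 20. Over all protein-coding genes with both marks, MOF was present at 49.1%. The ATPases, which unfold the substrate, had MOF at 4 of 6: Psmc5 with a score of 659, Psmc3 with 524, Psmc2 with 494 and Psmc6 with 357. Psmc1 and Psmc4 lacked it, although their H3K4me3 fold enrichments of 12.9 and 13.1 were among the 3 highest of all members.

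The Psmd genes, counted here as the non-ATPases, held the largest number, with MOF at 11 of 14. Psmd3 and Psmd12, lid subunits, had scores of 1343 and 1179, and Psmd8, another lid subunit, had 974. Psmd13 had 835, Psmd6 825 and Psmd14, the enzyme that removes ubiquitin from the substrate, 651. Psmd11 and Psmd7, also in the lid, had 504 and 443. Psmd9, Psmd5 and Psmd10, which are assembly chaperones of the cap's base despite their names, had 546, 460 and 423. Without these 3, MOF was present at 8 of 11 non-ATPases and at 12 of 17 cap genes (70.6%, 44.0 to 89.7). The latter interval holds the 49.1% of all protein-coding genes with both marks. The members without MOF were Psmd1 and Psmd2, the large scaffold subunits of the base, and Psmd4, a receptor for ubiquitin chains. Psmd4 had the strong marks of H3K4me3 at 11.1 and H3K27ac at 12.4.

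Among the Psme, Psmf and Psmg genes, MOF was present at 5 of 9. Among the activators, Psme2 had a score of 423 and Psme4 357, whereas Psme1, the partner of Psme2 in one ring, and Psme3, the nuclear activator, had both marks and no MOF. The chaperones Psmg4, Psmg1 and Psmg3 had scores of 709, 687 and 383, Psmg2 had no MOF peak, and neither had the inhibitor gene Psmf1. The families are small and their intervals broad, from 9.90 to 81.6% for the alpha subunits and from 49.2 to 95.3% for the 19S non-ATPases, and differences between them were not tested.

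The MOF peaks at proteasome promoters ranked low among MOF promoters and were narrow. The median score of the 28 members was 514 (middle 50% 423 to 738), against 653 (494 to 884) for the 5591 protein-coding genes with MOF. The median percentile of the members was 27.5, with 10 above the all-gene median and 18 below it. Psmd3 (1343), Psma1 (1339) and Psmd12 (1179) stood above the 90th percentile, and Psmc6 and Psme4 (357 each) and Psmb7 (367) were lowest. The median MOF peak width was 744 bp, against 1012 bp. Psme2, an activator subunit, had the widest MOF peak at 1877 bp, a peak it shares with the divergent Rnf31.

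**Figure D2:**
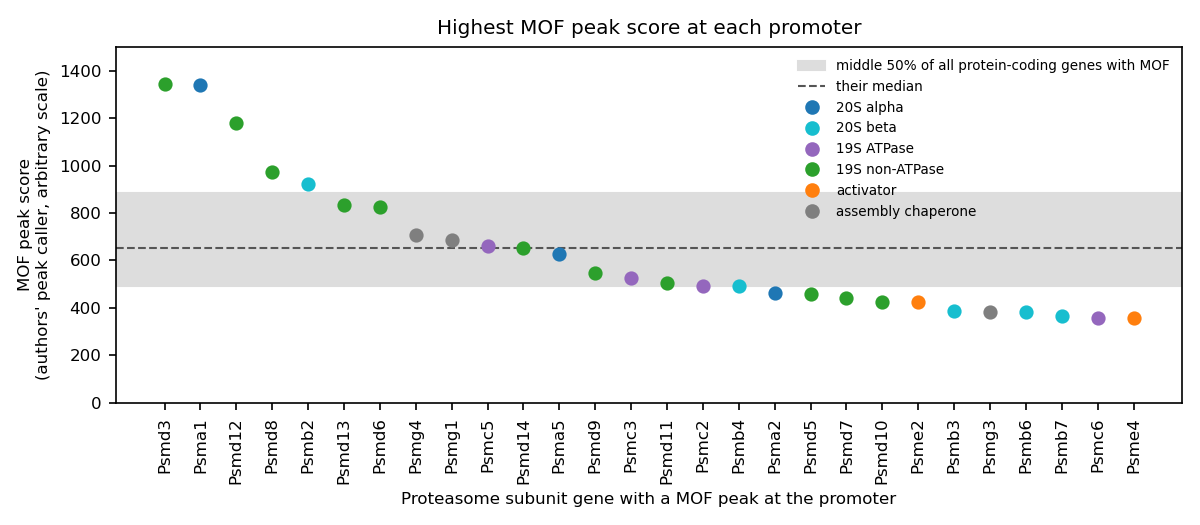
Points give the highest MOF peak score at each of the 28 promoters with MOF (arbitrary units of the authors' peak caller, linear axis from 0), ordered by score and coloured by role. The grey band spans the middle 50% of all 5591 protein-coding genes with MOF, 494 to 884, and the dashed line is their median of 653; 10 members lie above the line and 18 below.

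The active marks, in contrast, were high at proteasome promoters. The median H3K4me3 fold enrichment was 9.42 over the 46 members and 8.11 over the 12746 protein-coding genes with the mark, and the members' median percentile was 67.8. The median H3K27ac fold enrichment was 9.15 over 45 members and 6.78 over 10512 genes, with a median percentile of 84.1. The peaks were of usual width, at a median of 1372 bp against 1320 bp for H3K4me3 and 915 bp against 912 bp for H3K27ac. Fold enrichments are the authors' values at the peak summit and were compared within a list only.

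Psmg4, a chaperone of core assembly, had the highest H3K4me3 at 15.4, the 99th percentile of genes with the mark, followed by Psmc4 (13.1) and Psmc1 (12.9). The lowest were Psmb3 at 3.40, Psme4 at 5.01 and Psme2 at 5.23. Psmb3, a beta subunit, was also lowest for H3K27ac at 3.69 over 227 bp, and had a MOF peak. Psme4, which encodes a nuclear activator, had the narrowest H3K4me3 peak at its promoter, 426 bp, next to a second one of 1270 bp at 9.34 just inside the gene. Psme2 had the widest at 2411 bp. Across the 46 members wider H3K4me3 peaks were lower (Spearman's rho −0.70), and over all 12746 genes rho was −0.22. These are descriptions over genes of 1 library, since genes are not replicates.

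The marks were of like height at members with and without MOF. Members with both marks and MOF had a median H3K4me3 fold enrichment of 9.12, and those with both marks and no MOF 9.60. For all protein-coding genes the medians were 8.12 and 8.35. The median H3K27ac was 8.84 with MOF and 9.38 without at members, the opposite order to 7.24 and 6.39 over all protein-coding genes. The H3K4me3 width had a median of 1347 bp with MOF and 1423 bp without at members, again opposite to 1499 and 1339 bp over all genes. None of these differences was tested.

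Over all genes MOF was more frequent at wide H3K4me3 peaks, whereas the members' shares lay close together across width, on small counts. When the genes with H3K4me3 were split into 3 classes of like size by peak width, MOF was present at 26.1% of the narrow class (200 to 1099 bp), 45.1% of the middle class (1100 to 1555 bp) and 56.2% of the wide class (1556 to 4157 bp). The members had MOF at 4 of 6 (66.7%), 16 of 27 (59.3%) and 8 of 13 (61.5%). Psmg4, Psmg3, Psmd9 and Psme4 were the members with MOF in the narrow class. Among the 28 members the MOF score had a Spearman's rho of −0.01 with H3K4me3 fold enrichment, and the MOF width one of 0.50 with H3K4me3 width.

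**Figure D3:**
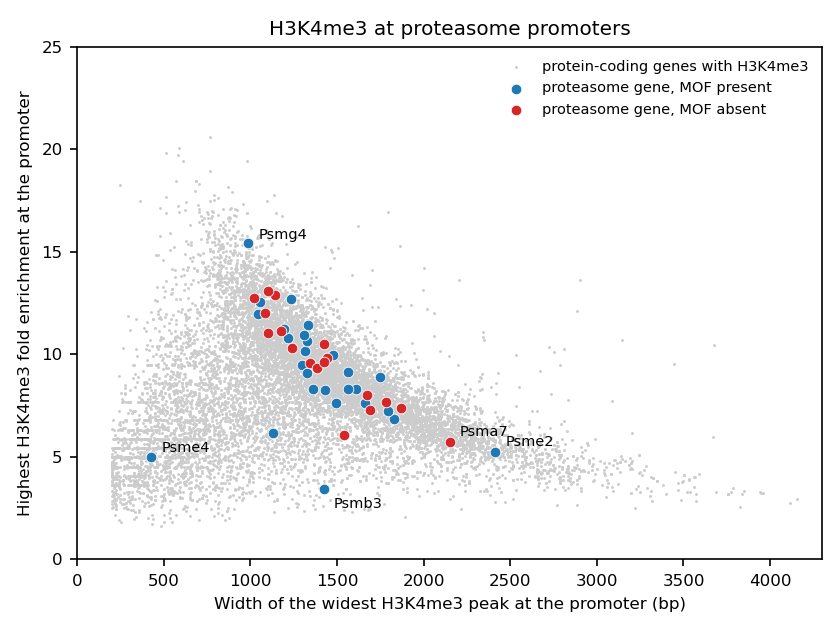
Each point is a gene with H3K4me3 at its promoter, by the width of the widest peak (bp) and the highest fold enrichment there, with proteasome genes in colour (blue with MOF, red without) and all protein-coding genes in grey. Members with and without MOF are intermingled along the same falling band, from Psmg4 at 987 bp and 15.4 to Psme2 at 2411 bp and 5.23, with Psmb3 (3.40) and Psme4 (5.01) low and off the band.

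MOF sat over the start of the genes and reached into the first intron, much as at other genes. The peak covered the TSS at 26 of the 28 members (92.9%), against 82.4% of 5419 protein-coding genes with MOF whose first exon could be read in the same way. At 23 members (82.1%) it reached past the first exon, against 77.3% of those genes. Of all bases in the members' peaks, 47.6% lay upstream of the TSS, 19.4% in the first exon, 30.4% in the first intron and 2.49% further in. Over the 5419 genes these shares were 46.4%, 17.8%, 30.2% and 5.62%. The median MOF peak centre was 38.5 bp downstream of the TSS, against 42 bp for all protein-coding genes with MOF.

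The exceptions were Psmc2 and Psmd5. At Psmc2 the MOF peak (chromosome 5, 21786629 to 21787039) lay 1354 to 1764 bp downstream of the first TSS, over the second one at 21786747 shown above, and it would not have been counted with 1 TSS per gene. At Psmd5, a chaperone of the cap's base, the peak ended 16 bp before the TSS and began 507 bp before it. Among the peaks that cover the first TSS, the longest reach into a gene was at Psmd11, where MOF ended 1404 bp downstream of the TSS and covered 1264 bp of the first intron, followed by Psmb2 with 1064 bp of it.

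The marks were set further downstream. The median H3K4me3 summit lay 142 bp and the median H3K27ac summit 143 bp downstream of the TSS, against 115 and 81 bp over all genes. The H3K4me3 summit was downstream at 37 of 46 members (66.4% of all genes) and the H3K27ac summit at 40 of 45 (62.1% of all genes).

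**Figure D4:**
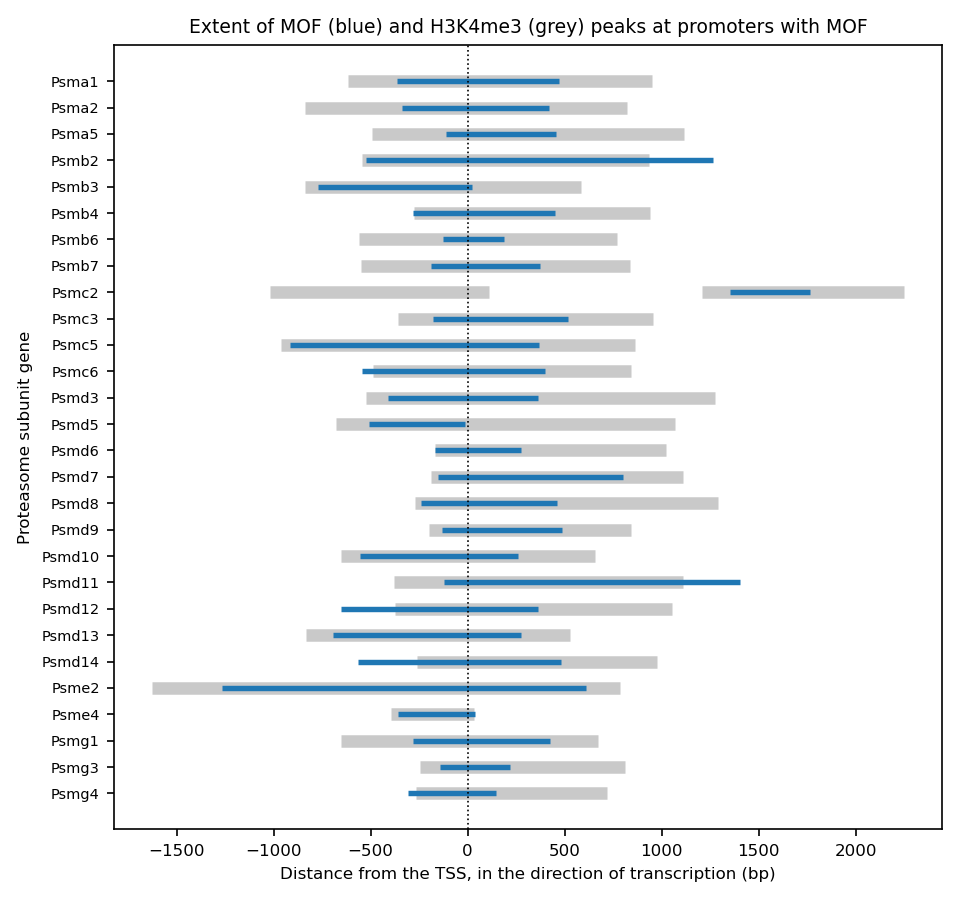
For each of the 28 members with MOF, the blue bar spans the MOF peak and the grey bars the H3K4me3 peaks, in bp from the first annotated TSS (dotted line) in the direction of transcription. MOF covers the TSS at all but Psmc2, where it lies 1354 bp downstream, and Psmd5, where it ends 16 bp upstream.

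Several proteasome genes share a promoter region with a gene on the opposite strand. A TSS of another gene lay head to head within 1 kb of 10 of 48 members (20.8%, 10.5 to 35), where 13.9% of all protein-coding genes and 21.2% of those with H3K4me3 had one. The distances were 19 bp for Psma7 and Ss18l1, 85 bp for Psmd13 and Sirt3, 101 bp for Psmc5 and Ftsj3, and 110 bp for Psmc2 and Dnajc2. They were 196 bp for Psmd10 and Atg4a, 205 bp for Psma2 and Mrpl32, 226 bp for Psmb9 and Tap1, 232 bp for Psmg2 and Cep76, and 641 bp for Psme2 and Rnf31. At Psma4 and AY074887 the transcripts overlapped by 95 bp. The partners have unlike roles: Sirt3 encodes a mitochondrial deacetylase, Mrpl32 a mitochondrial ribosomal protein, Atg4a an autophagy protease, Tap1 a peptide transporter of antigen presentation and Rnf31 a ubiquitin ligase.

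Over all genes MOF was more frequent beside a divergent neighbour, whereas the members' shares with and without one were close. MOF was present at 59.7% of the protein-coding genes with H3K4me3 and a divergent neighbour and at 37.8% of those with H3K4me3 and no such neighbour. The members had MOF at 6 of 10 with a neighbour (60%) and at 22 of 36 with H3K4me3 and no neighbour (61.1%). At Psma2, Psmc5, Psmd10, Psmd13 and Psme2 the MOF peak also overlapped the partner's promoter, so such a peak cannot be assigned to either gene. At Psmc2 it did not, and Dnajc2 had no MOF peak.

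Psmd13 and Sirt3 were the pair with every factor. The Rfx2 peak (chromosome 7, 140882059 to 140882349, 291 bp) had a fold enrichment of 10.6, which placed it at the 84th percentile of the 296 protein-coding genes with Rfx2. Its summit lay 127 bp upstream of the Psmd13 TSS, within the stretch shown above and beyond the Sirt3 TSS. The MOF peak there had a score of 835 over 970 bp, H3K4me3 8.32 over 1362 bp and H3K27ac 9.47 over 1084 bp. No X-box, the motif that Rfx2 recognizes, was found in the 300-base promoter window of Psmd13.

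Of the 18 members with H3K4me3 and no MOF at the promoter, 17 carried both marks, with H3K4me3 fold enrichments of 5.73 to 13.1 and H3K27ac of 3.86 to 12.4. The nearest MOF peak lay under 2 kb away at 2 of the 18, from 2 to 10 kb at 4 and further at 12 (66.7%). Over the 7336 protein-coding genes with H3K4me3 and no MOF, 77.3% had theirs further than 10 kb away. The median distance was 17465 bp at the members, with a range of 1223 to 133760 bp, and 26640.5 bp over those genes. The first of the near ones was Psmb1, whose nearest MOF peak, with a score of 749, lay 1223 bp upstream at the promoter of Tbp, the gene of the TATA-binding protein, which is transcribed away from it 1612 bp apart. The other was Psmc1, with a peak of 231 bp and a score of 483 inside the gene, 1719 bp downstream of the TSS. For Psmb8 and Psmb9 the nearest was the MOF peak at Tap2 (score 768), a gene of antigen presentation in the same cluster. For Psme1 it was the peak at Psme2 and Rnf31, 11997 bp away.

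Genes that work with the proteasome were read beside its subunits, from a list of 35, of which 34 were matched by symbol. They include assembly factors, shuttle factors, ubiquitin genes and regulators. H3K4me3 was present at 33 of the 34 (97.1%, against 60.7% of all protein-coding genes), missing at Nlrc5, the activator of MHC class I genes. MOF was present at 15 (44.1%, 27.2 to 62.1), against 26.6% of all protein-coding genes. Among those with H3K4me3 it was present at 15 of 33 (45.5%, 28.1 to 63.6), near the 42.4% of all genes with that mark. The median MOF score was 781 over those 15, 514 at the subunits and 653 over all genes with MOF. Rfx2 was present at 2 (5.88%, 0.720 to 19.7, against 1.41%), both with MOF: Nfe2l1, whose product drives proteasome subunit genes when the proteasome is inhibited, with an Rfx2 fold enrichment of 8.50 and a MOF score of 841, and the ubiquitin gene Ubb with 7.73 and 781. Tap1 shared its marks with Psmb9.

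Promoter letters were searched on both strands in the RefSeq windows from 250 bases before to 50 bases after the TSS. The table of 32851 promoters held 40 of the members, and not Psma8, Psmb1, Psmb2, Psmb7, Psmc3, Psmd3, Psmd7 and Psmg2. The ETS core CCGGAAG, a letter pattern bound by ETS factors, was found in 14 of 40 members (35%, 20.6 to 51.7), in 8.86% of all promoters and in 20.1% of protein-coding genes with H3K4me3. It was found in 3 of 5 ATPases (Psmc1, Psmc2 and Psmc6), 6 of 12 non-ATPases (Psmd2, Psmd4, Psmd6, Psmd11, Psmd12 and Psmd13), 2 of 4 activators (Psme3 and Psme4) and 2 of 3 chaperones (Psmg1 and Psmg3). In the core it was found only at Psma6, among the 7 alpha, 4 constitutive beta and 4 restricted genes that had a window. Both TSSs of Psmc2 held it, 84 and 24 bases before the TSS at its first letter, as the stretches above show.

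The letters of the interferon-stimulated element were found in 5 of 40 members (12.5%, 4.19 to 26.8), in 3.44% of all promoters and in 3.45% of genes with H3K4me3. These were Psmb3, Psmd4, Psmd9, Psme1 and Psmg4, of which Psme1 is a known interferon target. The interferon-induced Psmb8, Psmb9 and Psmb10 did not hold these letters in the window. The motif of NRF1 (nuclear respiratory factor 1, not the Nfe2l1 product of the same short name) was found in 7 members (17.5%) and in 11.6% of genes with H3K4me3. The GC box GGGCGG was found in 23 members (57.5%, 40.9 to 73.0) and in 71.9% of genes with H3K4me3, and the NF-Y box CCAAT in 14 (35%) and 43.5%.

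The antioxidant response element TGACNNNGC, the pattern read by Nfe2l1 and Nfe2l2, was found in 6 members (15.0%) and in 16.9% of genes with H3K4me3. They were Psmb5, Psmb6, Psmc6, Psmd9, Psmd12 and Psme4. The YY1 motif AAGATGGC was found in 3 members (7.5%) and in 5.16% of genes with H3K4me3, the TATA box TATAAA in 4 (10%) and 8.35%, and the E-box CACGTG in 4 (10%) and 11.8%. No member held the cAMP response element TGACGTCA (3.68% of genes with H3K4me3) or the full X-box (2.01%). The upper limit for 0 of 40 was 8.81%. No overlap between these patterns was removed, and a match describes letters, not a bound site.

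**Figure D5:**
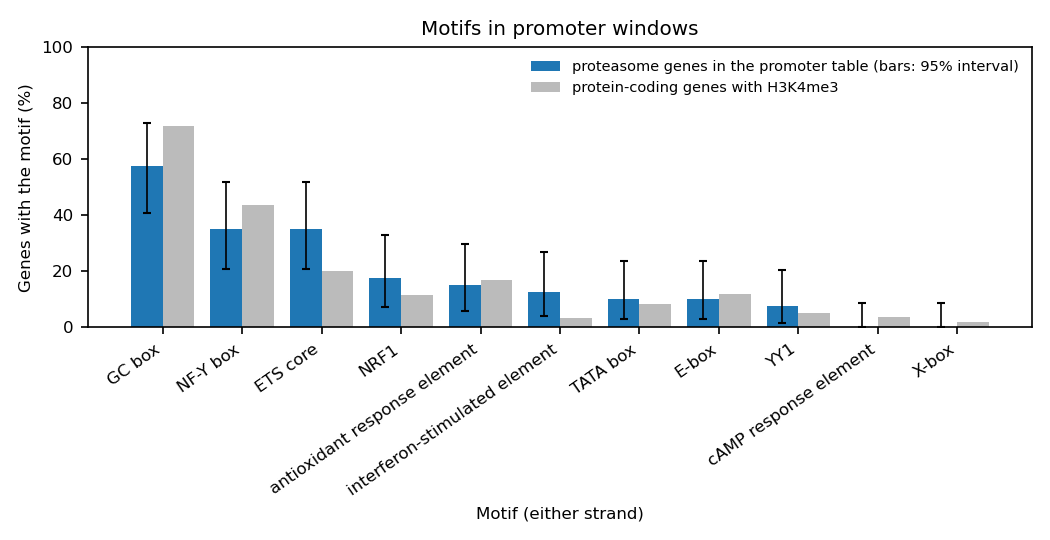
Bars give the percent of genes whose 300-base promoter window holds each motif on either strand, for the 40 proteasome genes in the promoter table (blue, with exact 95% intervals over genes) and for protein-coding genes with H3K4me3 (grey). The ETS core stands at 35% against 20.1% and the interferon-stimulated element at 12.5% against 3.45%, while the GC box is lower at members, 57.5% against 71.9%.

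CpG content was low at Psmb11 and Psmb10 and close at members with and without MOF. The observed over expected CpG ratio had a median of 0.749 over the 40 members, 0.798 over protein-coding genes with H3K4me3 and 0.206 over those without. Members with MOF had a median of 0.763 and members with H3K4me3 and no MOF 0.761, while over all genes with H3K4me3 the medians were 0.833 with MOF and 0.763 without. Psmb11 had 0.165 and Psmb10 0.192, and Psma1 0.960, in the full windows. Psmb10 thus had an H3K4me3 peak that overlapped a CpG-poor window, from 97 bp upstream to 1593 bp downstream of the TSS. Its summit lay 792 bp downstream, outside that window, where CpG content was not measured.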

How the data were processed

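ChIPseq (MOF, single-end) and Cut&Run (Rfx2, H3K4me3, H3K27ac, paired-end) reads were aligned by the authors with Bowtie2 to mm10, and peaks were called per library with MACS2. No control was stated. The deposited Rfx2, H3K4me3 and H3K27ac lists gave the fold enrichment and −log10 q-value of each peak. The deposited MOF list gave only a score, whose scale was not stated. It holds more regions than the study counted as MOF peaks and is possibly a different or unfiltered call. Per the labels, the H3K4me3 and H3K27ac lists belong to repeat libraries, though for H3K4me3 the list is not named as a repeat and its library is uncertain. H4K16ac, H3K4me1 and the other H3K4me3 and H3K27ac libraries were not used here. The lists hold no read counts, and the read totals the study states for its libraries were not used here.

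Peaks were set against curated RefSeq TSSs of GRCm38.p6 (minimum overlap 1 bp) in Python 3.11.15, with the highest score or fold enrichment and the widest peak kept per gene. Intervals were computed with scipy 1.17.1. On 2000 simulated windows, 0 overlap calls disagreed with bedtools 2.31.1. Named with values are members without H3K4me3 or with Rfx2, the 3 highest and 3 lowest by MOF score and H3K4me3, and the widest MOF peak. Members with marks and no MOF are given by counts and ranges, with the nearest MOF peak where it is under 2 kb away. Other values named were chosen after they were seen. The members, lists, motifs and marker genes were chosen with earlier results of these data known. Alternatives were other windows and TSS sets, peak centres, the highest 50% of peaks and subsets of members. A result on H3K27ac in the list of pathway genes is not reported here.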

Additional observations from a re-analysis of the deposited data

How the results depend on the processing

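Of 70 alternative values, 66 stayed within 1.5 times the counts given above or moved by less than their own interval, and 4 moved further. Some of the 66 could not have moved. The fold enrichments given as median percentiles, 67.8 and 84.1, only restate the values above. The cAMP response element and the X-box at members with MOF were 0 of 23, drawn from 0 of 40. When a peak had to have its centre in the promoter window, H3K4me3 was counted at 14 members and H3K27ac at 20, because their peaks are centred downstream of the TSS, and MOF at 21. With the highest 50% of each list's peaks, MOF was counted at 12 members, 25% of all 48 and 30% of those with H3K4me3, against 16.3% and 26.7% of protein-coding genes. A shorter list can only lower such counts. Widening the window to 2.5 kb before and after the TSS gave 30 members with MOF, adding Psmb1 and Psmc1. TSSs of all RefSeq transcripts gave 29, adding Psma3, and 1 TSS per gene gave 27, without Psmc2. Ranked by −log10 q-value, the members' median percentile was 76.2 for H3K4me3 and 77.1 for H3K27ac. Without the restricted subunits, an alternative chosen after seeing the data, 65.1% of members with H3K4me3 had MOF. No paired analysis was possible because no result here comes from a test between groups. With the list of 1 library per antibody, no replicate error could be set beside any value, and a missing peak means only that none was called at that library's depth.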

Other observations

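Peaks inside the proteasome genes, away from the promoter windows, were counted as well. MOF had such a peak in 8 of 48 members (16.7%), against 20.8% of protein-coding genes, H3K4me3 in 4 (8.33%) against 24.3%, and H3K27ac in 5 (10.4%) against 24.1%. Gene spans here include predicted transcripts, so the H3K4me3 peak counted at Psma3 is centred 5638 bp upstream of its curated TSS, over the start of a predicted transcript. The members are shorter, with a median gene length of 11930 bp against 17741.5 bp, and no correction for length was made. Psmb2 and Psmd9 had all of the 3 inside the gene. Psmb2, a beta subunit, had a MOF peak of 1346 bp with a score of 919 centred 16056 bp from the TSS, close to the 924 at its promoter, with an H3K4me3 peak of 200 bp (4.96) and an H3K27ac peak of 551 bp (5.72) beside it. Psmd9, a chaperone of the cap's base, carried H3K4me3 (8.12) and H3K27ac (5.56) inside the gene, 7755 and 7698 bp from the TSS, and a separate MOF peak with a score of 507 at 18874 bp. Psmb7, a catalytic subunit, had MOF peaks with scores of 693 and 294 at 48829 and 51956 bp, near the far end of its 55907 bp. The nearest MOF peak of Psma3, an alpha subunit, lay 5429 bp upstream with a score of 659 and became a promoter peak when TSSs of predicted transcripts were included.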
